A study of Mus musculus with 7 samples.

Results

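Expression of 9 genes around the ubiquitin editor A20 was examined in mouse spleen after lipopolysaccharide (LPS), a bacterial cell wall component. The genes were chosen by name among the 17920 genes of the expression table: Tnfaip3, Tnip1, Tnip3, Tnfaip2, Traf1, Traf2, Birc2, Birc3 and Cyld. All 9 were found, and all 9 passed the filter of a mean of at least 1 FPKM (fragments per kilobase of transcript, corrected for the mapped total of each library) over the libraries. The study compared wild-type mice with mice lacking GdX (UBL4A), a small ubiquitin-like protein that takes part in delivering proteins to membranes. Every animal was labelled C57BL/6, was 8 weeks old and received 20 mg/kg LPS into the peritoneum, and spleens were taken 90 min or 6 h later. The 4 groups held 2 wild-type libraries at 90 min, 2 GdX-deficient libraries (labelled GdX-/-, and GdX-/Y in the protocol) at 90 min, 2 wild-type libraries at 6 h and 1 GdX-deficient library at 6 h. The series' design text gives 4 wild-type and 3 GdX-deficient mice, which equals 1 mouse per library. No spleen without LPS was analysed here, so all levels are levels after LPS, and how the GdX deletion was made is not given in the sources used here. The source is labelled splenocytes, while the protocol describes RNA from crushed spleen.

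Signals from the TNF receptor and from Toll-like receptors reach NF-kB through ubiquitin chains that are built on receptor complexes and then trimmed. TRAF2 is the adaptor that brings the ubiquitin ligases cIAP1 (gene Birc2) and cIAP2 (gene Birc3) to the TNF receptor, and TRAF1 is a relative that lacks the RING domain and pairs with TRAF2. A20 (gene Tnfaip3) edits ubiquitin chains and restrains NF-kB, with the help of the ubiquitin-binding protein ABIN-1 (gene Tnip1), and the deubiquitinase CYLD cuts the chains as well. ABIN-3 (gene Tnip3) is another partner of A20. Several of these genes, Tnfaip3 and Birc3 among them, are known NF-kB targets that are induced early in inflammation. Tnfaip2 encodes an exocyst-related protein that TNF induces and is not itself a ubiquitin enzyme.

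The depth, estimated from the step between low FPKM values, lay between 18260000 and 20540000 fragments per library. Tnip3, the member with the lowest single value, still rested on about 407 fragments in its lowest library. As a check of the labels, the targeted gene Ubl4a alone did not separate the genotypes: it was listed at 4.03, 5.69 and 10.56 FPKM in libraries labelled GdX-deficient and at 5.62 to 14.01 FPKM in wild type. The overlapping entry Gm44504 separated them, at 0.66 to 1.86 FPKM against 14.5 to 51.1 FPKM, and so did the sum of both, at 5.04 to 11.2 FPKM against 21.02 to 62.98 FPKM. Which part of the locus was deleted is not given in the sources used here. Spleen cell markers were present in every library, and the 6 pancreas markers summed to at most 0.97 FPKM. Replicates of a group lay at least 1.5-fold apart for 5 of the 9 members in GdX-deficient spleen at 90 min, 3 in wild type at 6 h and 2 in wild type at 90 min. The summed level of 6 neutrophil markers was 4699 FPKM in replicate 2 of the GdX-deficient group at 90 min and 2594 FPKM in the single 6 h library of that genotype. In the other 5 libraries it was between 684 and 1068 FPKM. The 6 B cell markers summed to 468 and 469 FPKM in wild type at 6 h and to between 1155 and 2010 FPKM elsewhere. The 6 T cell markers (121 to 149 against 270 to 382 FPKM) and the 6 red pulp macrophage markers (302 to 327 against 567 to 699.7 FPKM) were also lowest in wild type at 6 h. The 5 erythroid markers in the table were lowest there too, at 166 and 236 FPKM against 509 to 1172 FPKM. Both wild-type libraries at 90 min had the highest sums of 6 stroma markers (214 and 126 FPKM against 38.8 to 86.1 FPKM) and of the 5 fat markers in the table (51.15 and 38.6 FPKM against 4.44 to 21.1 FPKM). Only 1 of these 5 fat markers had a mean of at least 1 FPKM over the libraries. Adipoq, Lep and Cidec were each undetected in at least 1 library. The fat sums here and below therefore say little about fat cells. In bulk spleen, fewer cells of a type and less RNA per cell cannot be told apart, and the part of these marker differences in the results below was not tested.

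**Figure D1:**
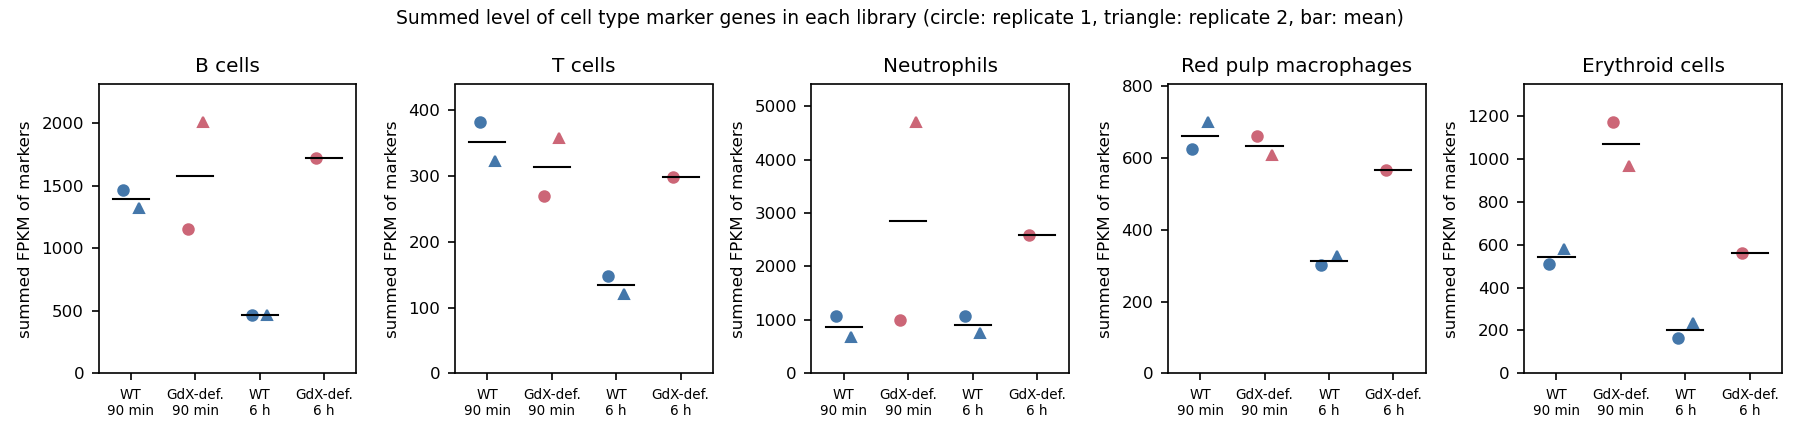
Summed FPKM of marker genes of 5 cell types in each library (circles replicate 1, triangles replicate 2, bars group means). Neutrophil markers were high in replicate 2 of the GdX-deficient group at 90 min (4699 FPKM) and in the GdX-deficient library at 6 h (2594 FPKM). B cell markers were low in both wild-type libraries at 6 h (468 and 469 FPKM).

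FPKM is a level per transcript length, so the members could be ranked within a group. In wild-type spleen at 90 min, Birc3 (213.7 ± 36.1 FPKM) and Tnfaip3 (206 ± 62.7 FPKM) were the most abundant, followed by Tnfaip2 (161 ± 37.7 FPKM) and Traf1 (136 ± 19.0 FPKM; SD, n = 2 for each). Neighbours among these 4 genes overlapped between libraries. Tnip1 (89.9 ± 31.5 FPKM) and Birc2 (65.7 ± 8.17 FPKM) formed the middle of the order and overlapped each other, and Tnip3 (45.0 ± 1.36 FPKM), Traf2 (23.3 ± 1.48 FPKM) and Cyld (11.04 ± 0.509 FPKM) came last, each apart from its neighbours (SD, n = 2 for each). At 6 h in wild type the first place belonged to Traf1 (133 ± 24.2 FPKM; SD, n = 2), which overlapped with Birc3, and Tnip3 had dropped to the last place at 8.41 ± 2.16 FPKM (SD, n = 2), overlapping with Cyld. In the GdX-deficient library at 6 h, which has no replicate, Tnfaip2 (88.3 FPKM) and Traf1 (86.9 FPKM) led and Tnfaip3 stood in the sixth place at 45.3 FPKM. Over the 7 libraries the highest level exceeded the lowest by 8.23-fold for Tnip3, 5.54-fold for Tnfaip3 and 4.02-fold for Birc3, but by only 1.28-fold for Traf2 and 1.52-fold for Birc2. The ligase Birc2 and the adaptor Traf2 were thus the steadiest of the 9 across libraries, and Tnip3 the most variable.

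**Figure D2:**
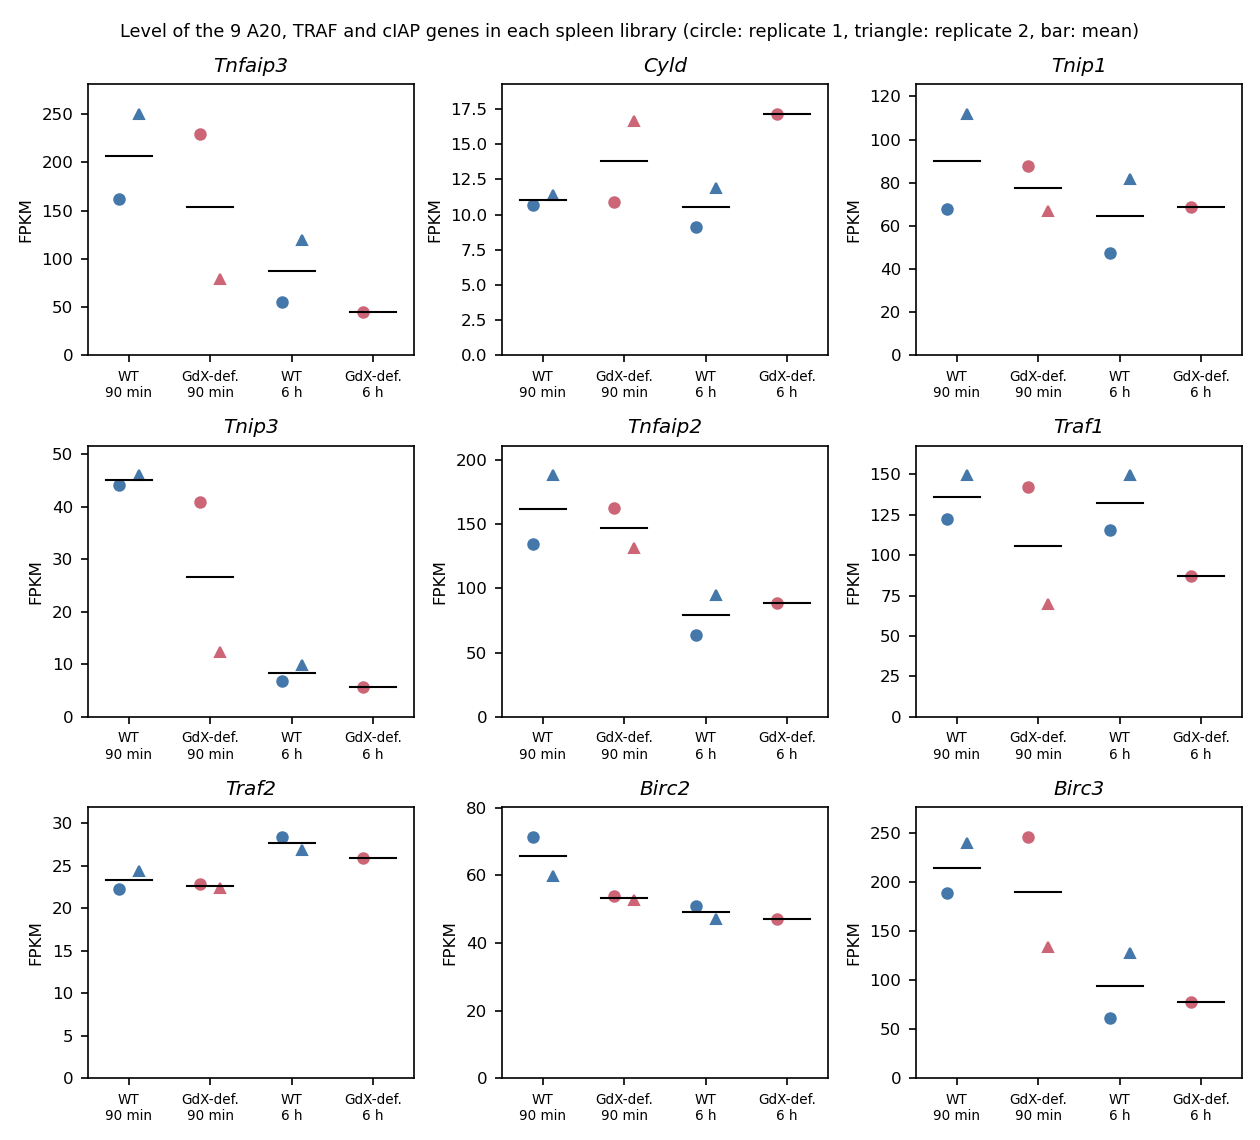
FPKM of each of the 9 genes in each of the 7 libraries, by genotype and time after LPS (circles replicate 1, triangles replicate 2, bars group means; each panel starts at 0). Tnip3 stood at 44.1 and 46.0 FPKM in wild type at 90 min and at 6.89 and 9.94 FPKM at 6 h, while Traf2 stayed between 22.2 and 28.4 FPKM in all libraries.

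The time course was first read in wild type, where 6 h was set against 90 min in a limma fit of all 4 groups. Tnip3 was the only member past the threshold (adjusted p of 0.05), and it fell. Tnfaip3, Birc3 and Tnfaip2 had lower values in both 6 h libraries than in either 90 min library but did not pass, and Traf1, Traf2, Birc2, Tnip1 and Cyld differed less. Limma called 10.7% of the 11378 genes tested, 6.32% as lower and 4.39% as higher at 6 h, against 1 of the 9 members, which was lower. At an unadjusted p under 0.05 there were 4 of 9 members, Tnip3, Tnfaip2, Birc3 and Tnfaip3, against 28.7% of all genes. The median log2 fold change of the members was -0.48, beside 0.05 over all genes tested. The libraries did not overlap, with lower values at 6 h, for 5 of the 9 members (Tnfaip3, Tnip3, Tnfaip2, Birc2 and Birc3), against 27.6% of all genes, and with higher values for 1 (Traf2), against 30.3%. Both 6 h libraries were also those with the lowest B cell (468 and 469 FPKM), T cell, macrophage and erythroid marker sums. Stroma markers summed to 214 and 126 FPKM at 90 min and to 38.8 and 43.05 FPKM at 6 h, and fat markers to 51.15 and 38.6 FPKM and then to 21.1 and 10.4 FPKM. The globin share of the FPKM sum was 22.3% and 19.2% at 90 min and 9.46% and 7.73% at 6 h. The part of these differences in the time comparison was not tested.

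Tnip3 (Entrez gene 414084, chromosome 6, 65590398 to 65634040 in GRCm38.p6) encodes ABIN-3, a partner of A20. It stood at 44.1 and 46.0 FPKM in wild type at 90 min and at 6.89 and 9.94 FPKM at 6 h. Both early libraries lay far above both late ones, and the mean was 5.35-fold lower at 6 h. The log2 fold change was -2.31 (SE 0.47, limma adjusted p = 0.0178). It passed in 13 of 14 alternatives, with limma adjusted p from 0.000227 to 0.0883, and was lost without a filter on low values. The stretch directly upstream of its RefSeq start is shown because Tnip3 was the member that moved most, with the NF-kB consensus match in capitals (chr6:65590238-65590397, GRCm38.p6, plus strand, from RefSeq):
Tnip3: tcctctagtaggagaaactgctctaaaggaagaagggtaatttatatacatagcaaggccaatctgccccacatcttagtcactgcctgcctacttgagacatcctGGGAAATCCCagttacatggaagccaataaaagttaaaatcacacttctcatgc
The match reads as the consensus on both strands and covers the bases 54 to 45 upstream of the start.

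The RefSeq promoter table held 11 starts for the 9 members. Both strands of the 250 bases upstream were searched for the NF-kB consensus. It was found at 4 of these starts, which belong to Tnip3, Tnip1, Tnfaip3 and Cyld, and at 3.90% of all 32851 promoters in the table. No match was found in these windows for Birc3, Birc2, Traf1, Traf2 or Tnfaip2, which says only that these letters are not there. The remaining matches are shown in windows of 30 bases, read along the strand of the gene, with matching bases in capitals. They let the other members with a match be read beside Tnip3. Those of Tnfaip3 lie at chr10:19015516-19015545 and chr10:19015411-19015440 on the minus strand, that of Tnip1, where matches on both strands overlap, at chr11:54962978-54963007 on the minus strand, and that of Cyld at chr8:88696863-88696892 on the plus strand, all in GRCm38.p6.
Tnfaip3, first match: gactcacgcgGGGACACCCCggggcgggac
Tnfaip3, second match: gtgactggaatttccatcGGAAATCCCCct
Tnip1: tccatcatgGGGGAATTCCCCtcctgcctc
Cyld: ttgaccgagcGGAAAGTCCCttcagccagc
The Cyld window begins before and ends inside the span of the gene, because the start in the promoter table lies within that span. A match describes letters and shows no binding. It was present both in Tnip3, which fell with time, and in Cyld, whose level in wild type differed little between the times.

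The other early members followed with smaller differences. Tnfaip3 (Entrez gene 21929, chromosome 10, 19000910 to 19015410, like all positions here in GRCm38.p6) encodes A20 and stood at 162 and 251 FPKM at 90 min and at 55.1 and 119.8 FPKM at 6 h in wild type. The libraries of the 2 times did not overlap, and limma gave a log2 difference of -1.30 (SE 0.51, adjusted p = 0.134). Birc3 (Entrez gene 11796, chromosome 9, 7847468 to 7873205), the gene of cIAP2, stood at 188 and 239 FPKM and then at 61.2 and 127 FPKM (limma: -1.25 on the log2 scale, SE 0.40, adjusted p = 0.0745). Its neighbour Birc2 on chromosome 9 is a close relative, so fragments shared by both could be divided either way. Tnfaip2 (Entrez gene 21928, chromosome 12, 111442450 to 111455018) stood at 135 and 188 FPKM and then at 64.0 and 95.0 FPKM (limma: -1.02 on the log2 scale, SE 0.29, adjusted p = 0.0560). In each of these 3 genes replicate 2 at 6 h was the higher of the pair. Without that library the lone 6 h sample was assumed to vary like the other groups, and limma called Tnfaip3 (log2 fold change -1.85, adjusted p = 0.00246), Birc3 (-1.78, adjusted p = 0.000783) and Tnfaip2 (-1.30, adjusted p = 0.00660) beside Tnip3, 4 of 9 members. That fit called 1774 genes, or 15.6% of all tested. Without replicate 1 at 6 h the values shrank to -0.75 for Tnfaip3, -0.73 for Birc3 and -0.74 for Tnfaip2, and none of the 3 passed (limma adjusted p from 0.133 to 0.234).

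The adaptors, the other ligase, ABIN-1 and the second deubiquitinase did not pass in wild type, nor did any of them have an unadjusted p under 0.05. Traf1 stood at 123 and 149 FPKM early and 115 and 149.7 FPKM late, so its libraries overlapped (limma: -0.04 on the log2 scale, SE 0.35, adjusted p = 0.951). The reads of Traf1 (chromosome 2, 34941750 to 34961812) may include some from the lncRNA entry Gm52552, which overlaps it. Traf2 (chromosome 2, 25517982 to 25546940) was the only member with higher values at 6 h in both libraries, at 28.4 and 26.8 FPKM against 22.2 and 24.3 FPKM (limma: 0.24 on the log2 scale, SE 0.25, adjusted p = 0.571). Birc2 (chromosome 9, 7818226 to 7837131), the gene of cIAP1, stood at 71.5 and 59.95 FPKM and then at 51.1 and 47.1 FPKM (limma: -0.41 on the log2 scale, SE 0.24, adjusted p = 0.294). Tnip1 (chromosome 11, 54910787 to 54962956), the gene of ABIN-1, stood at 67.6 and 112 FPKM and then at 47.5 and 81.55 FPKM, overlapping between the times (limma: -0.48 on the log2 scale, SE 0.35, adjusted p = 0.400). Without replicate 1 at 6 h the Tnip1 value was -0.094, and without replicate 2 it was -0.86. Cyld (chromosome 8, 88696878 to 88751946) stood at 10.7 and 11.4 FPKM and then at 9.11 and 11.9 FPKM (limma: -0.08 on the log2 scale, SE 0.31, adjusted p = 0.901). RefSeq places pseudogene entries within Tnip1 (Gm12230), Traf2 (Gm13433) and Cyld (Gm17995 and Gm17910), and how shared fragments were counted is not given in the sources used here. In both wild-type pairs most members were lower in replicate 1, 8 of 9 at 90 min and 7 of 9 at 6 h.

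In GdX-deficient spleen the time course rests on 1 library at 6 h and was described without a test. Tnfaip3 was at 45.3 FPKM at 6 h against 229 and 79.1 FPKM at 90 min, and Tnip3 at 5.59 against 40.9 and 12.35 FPKM. Birc3 was at 77.7 against 246 and 134 FPKM, and Tnfaip2 at 88.3 against 162 and 132 FPKM. Including Birc2 (47.1 against 53.9 and 52.8 FPKM), the 6 h library lay below both early libraries for 5 members, against 15.8% of all genes. These are the same 5 members that separated the times downwards in wild type. It lay above both for Traf2 (25.9 against 22.8 and 22.3 FPKM) and Cyld (17.2 against 10.9 and 16.7 FPKM), where 56.8% of all genes did. Traf1 and Tnip1 lay between the early libraries. Between the same libraries the erythroid marker sum was 561 at 6 h against 1172 and 966 FPKM, the fat sum 4.44 against 18.3 and 17.4 FPKM, the stroma sum 86.1 against 50.2 and 38.9 FPKM and the globin share 13.6% against 30.9% and 23.5%. Their part in the time differences was not tested.

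Genotype was compared next at 90 min, with 2 libraries on each side. For 8 of the 9 members the fitted difference was below 0 in GdX-deficient spleen, where 56.5% of all genes lay above 0, but none passed the threshold and none had an unadjusted p under 0.05. The count of 8 below 0 fell to 4 when the second GdX-deficient replicate was left out, to 5 when the second wild-type replicate was left out and to 5 after rescaling without globin genes. Limma called 0.0176% of the genes tested at the threshold and 7.58% at an unadjusted p under 0.05, and the median log2 fold change was -0.22 for the members and 0.07 for all genes. Only Tnip3 and Birc2 had both GdX-deficient libraries below both wild-type libraries, 2 of 9 against 23.4% of all genes, and 0 of 9 had both above, against 24.1%. Tnip3 stood at 40.9 and 12.35 FPKM without GdX, where wild type had 44.1 and 46.0 FPKM (limma: -0.96 on the log2 scale, SE 0.47, adjusted p = 0.621). Birc2 stood at 53.9 and 52.8 against 71.5 and 59.95 FPKM (limma: -0.29 on the log2 scale, SE 0.24, adjusted p = 0.661). Without replicate 1 of wild type the Birc2 value was -0.17.

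The GdX-deficient replicates at 90 min lay at least 1.5-fold apart for Tnfaip3, Tnip3, Traf1, Birc3 and Cyld, and 1.23-fold apart for Tnfaip2. The genotype values moved with the library that was left out. Tnfaip3 stood at 229 FPKM in replicate 1, between the wild-type libraries at 162 and 251 FPKM, and at 79.1 FPKM in replicate 2, below both. Its log2 fold change was -0.58 (SE 0.51, limma adjusted p = 0.678), and it was 0.18 without replicate 2 and -1.34 without replicate 1. Birc3 (246 and 134 against 188 and 239 FPKM; limma: -0.22 on the log2 scale, SE 0.40, adjusted p = 0.836) was in the same order, above both wild-type libraries in replicate 1 and below both in replicate 2. Traf1 (142 and 69.7 against 123 and 149 FPKM; limma: -0.44 on the log2 scale, SE 0.35, adjusted p = 0.656) was between the wild-type libraries in replicate 1 and below both in replicate 2. Without replicate 2 their differences turned to 0.21 and 0.07, while that of Tnip3 shrank to -0.13. Without replicate 1 the Tnip3 value was -1.79. Replicate 2 was also the library with the highest neutrophil (4699 FPKM) and B cell (2010 FPKM) marker sums, against 991 and 1155 FPKM in replicate 1. Stroma marker sums were 50.2 and 38.9 FPKM in the GdX-deficient libraries against 214 and 126 FPKM in wild type, and fat marker sums 18.3 and 17.4 against 51.15 and 38.6 FPKM. Erythroid marker sums were 1172 and 966 FPKM against 509 and 579 FPKM, and globin genes took 30.9% and 23.5% of the FPKM sum against 22.3% and 19.2%. The part of these differences in the genotype values was not tested. For Cyld the order was the other way, with 10.9 FPKM in replicate 1 and 16.7 FPKM in replicate 2 against 10.7 and 11.4 FPKM in wild type (limma: 0.27 on the log2 scale, SE 0.31, adjusted p = 0.735), and without replicate 2 the difference was -0.02. Tnip1 (-0.18), Tnfaip2 (-0.12) and Traf2 (-0.04) overlapped between the genotypes, and when the values were rescaled to an equal sum without globin genes, which raises the median of all genes from 0.07 to 0.25, they became 0.03, 0.09 and 0.16.

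**Figure D3:**
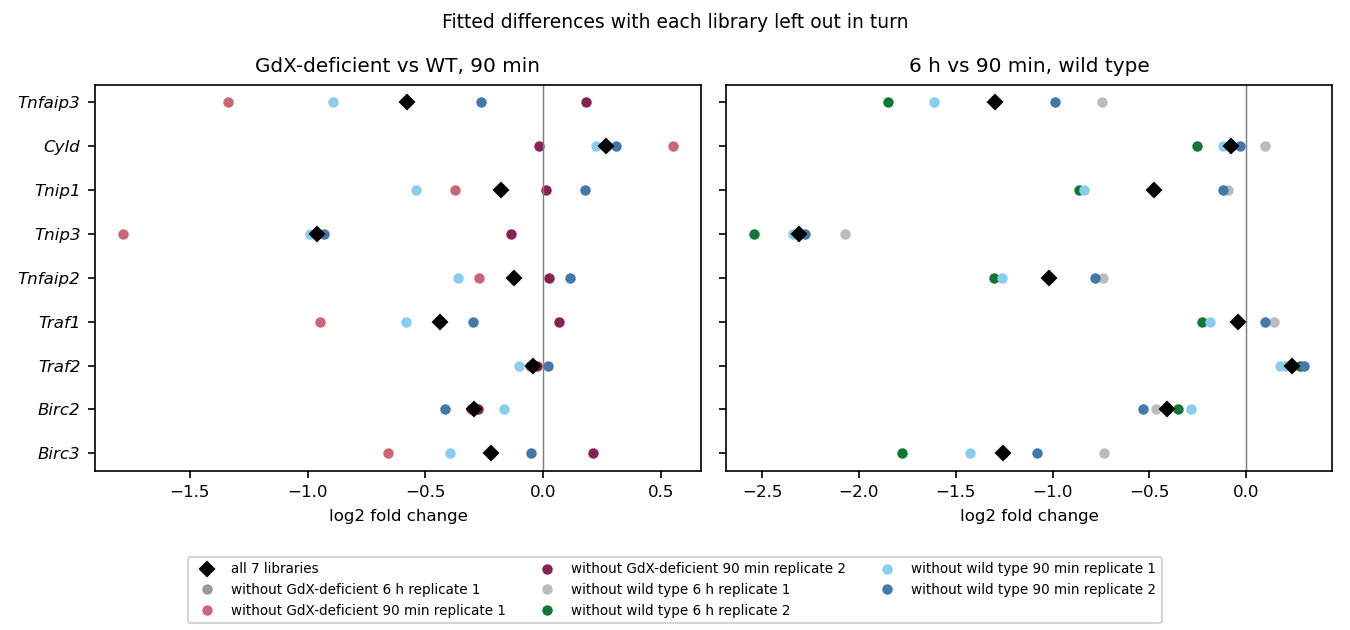
Fitted log2 fold change of each gene with all 7 libraries (diamonds) and with 1 library left out (circles). At the left, GdX-deficient against wild type at 90 min, the values of Tnfaip3, Birc3 and Traf1 lie above 0 without replicate 2 of the GdX-deficient group (0.18, 0.21 and 0.07); at the right, 6 h against 90 min in wild type, Tnip3 stays between -2.54 and -2.07. Points of libraries outside a comparison lie under the diamonds.

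At 6 h the single GdX-deficient library was set against 2 of wild type in the same fit, with the lone library assumed to vary like the other groups. None of the 9 members passed, and none had an unadjusted p under 0.05, where limma called 3.96% of the genes tested and 28.4% at the unadjusted level. Tnfaip3 stood at 45.3 FPKM in GdX-deficient spleen against 55.1 and 119.8 FPKM in wild type (limma: -0.83 on the log2 scale, SE 0.63, adjusted p = 0.398). Traf1 stood at 86.9 against 115 and 149.7 FPKM (limma: -0.59 on the log2 scale, SE 0.42, adjusted p = 0.375). Tnip3 stood at 5.59 against 6.89 and 9.94 FPKM (limma: -0.50 on the log2 scale, SE 0.58, adjusted p = 0.584). With Traf2 (25.9 against 28.4 and 26.8 FPKM) and Birc2 (47.10 against 51.1 and 47.11 FPKM), 5 of 9 members lay below both wild-type libraries, against 25.3% of all genes. Cyld was the only member above both, at 17.2 against 9.11 and 11.9 FPKM (limma: 0.67 on the log2 scale, SE 0.38, adjusted p = 0.267), where 54.9% of all genes were. Birc3 (-0.18), Tnip1 (0.15) and Tnfaip2 (0.18) lay between the wild-type libraries. Without replicate 1 of wild type the value was -1.38 for Tnfaip3 and -0.73 for Tnip3, and without replicate 2 it was -0.28 and -0.26. The marker sums moved with genotype at this time as well. They were 1727 FPKM in GdX-deficient spleen against 468 and 469 FPKM for B cells, 2594 against 1064 and 745 FPKM for neutrophils and 299 against 149 and 121 FPKM for T cells. For macrophages they were 567 against 302 and 327 FPKM, for erythroid cells 561 against 166 and 236 FPKM and for stroma 86.1 against 38.8 and 43.05 FPKM. Fat markers went the other way, at 4.44 against 21.1 and 10.4 FPKM, and the globin share was 13.6% against 9.46% and 7.73%. Their part in the member differences was not tested. The median over all genes was 0.32 as deposited, -0.02 after quantile normalization and 0.55 after rescaling without globin genes. Traf2 and Birc3 turned to 0.18 and 0.09 under the rescaling, and Birc2 (-0.06) to 0.01 and 0.22 under the respective scalings, while Tnfaip3, Tnip3 and Traf1 stayed below 0 and Cyld above 0.

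An additive fit with time as a covariate then used all 3 GdX-deficient and all 4 wild-type libraries. Again 0 of 9 members passed and 0 of 9 had an unadjusted p under 0.05, against 0.0439% of all genes called by limma and 27.0% at an unadjusted p under 0.05. The median log2 fold change was -0.20 for the members and 0.16 for all genes. Tnip3 had the lowest value (-0.77, SE 0.35, limma adjusted p = 0.188), followed by Tnfaip3 (-0.68, SE 0.38, limma adjusted p = 0.262) and Traf1 (-0.50, SE 0.26, limma adjusted p = 0.237), and Cyld had the highest (0.43, SE 0.24, limma adjusted p = 0.265). In all 13 alternatives run for this comparison these 4 genes kept their direction, but Tnip3 alone passed, and only without replicate 1 of the GdX-deficient group at 90 min (-1.14, limma adjusted p = 0.0480). That fit called 1674 genes, or 14.7% of all tested, against 5 with all libraries. Without replicate 2 of that group Tnip3 shrank to -0.32 and did not pass. Tnfaip3 was at -1.09 and Traf1 at -0.77 without replicate 1, and at -0.32 and -0.26 without replicate 2. Cyld was at 0.27 without the GdX-deficient library at 6 h. The fit in which Tnip3 passed keeps the 2 GdX-deficient libraries with the high neutrophil marker sums (4699 and 2594 FPKM), and the part of this was not tested. The GdX-deficient libraries lay below those of wild type at both times for Tnip3 and Birc2, 2 of 9 against 13.0% of all genes, and above them at both times for 0 of 9 against 19.0%. Birc2 (-0.20, SE 0.19, limma adjusted p = 0.517), Birc3 (-0.21), Traf2 (-0.06), Tnip1 (-0.05) and Tnfaip2 (0.00 after rounding) all lay above 0 after rescaling without globin genes, at 0.03, 0.03, 0.17, 0.18 and 0.23.

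**Figure D4:**
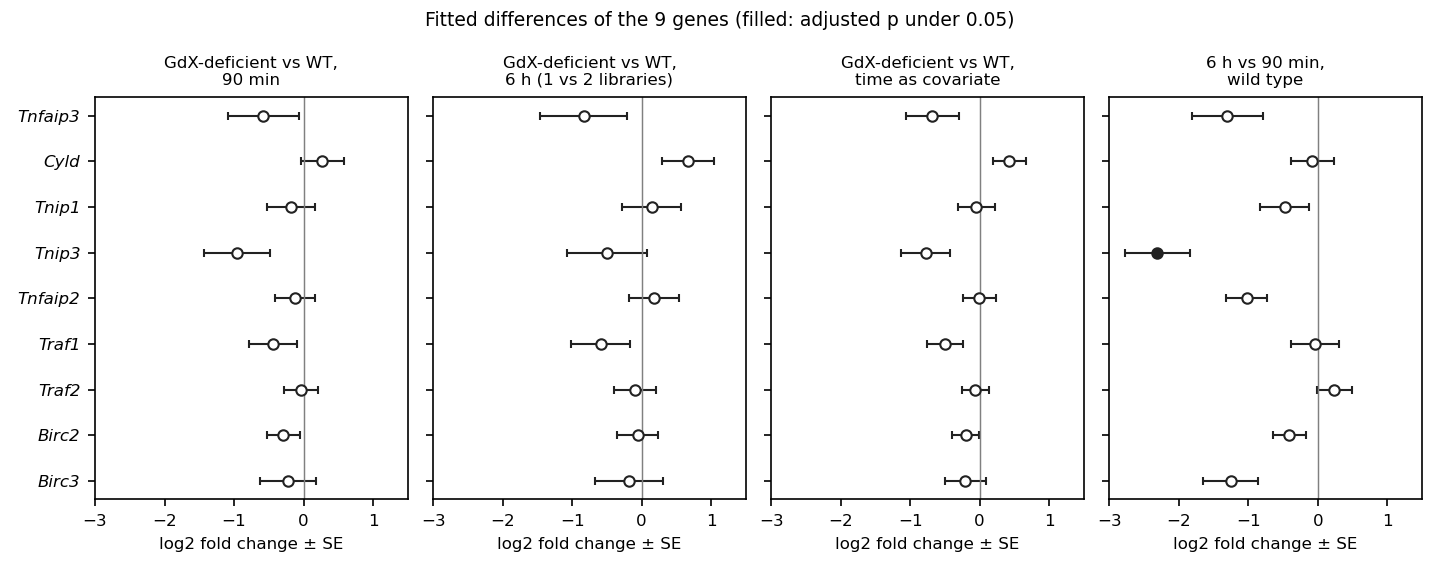
Fitted log2 fold change ± SE of the 9 genes in 4 comparisons (limma on log2(FPKM + 1)); a filled point has an adjusted p under 0.05. Tnip3 at 6 h against 90 min in wild type (-2.31) is the only filled point. In each of the 3 genotype panels Tnfaip3, Tnip3, Traf1, Traf2, Birc2 and Birc3 lie below 0 and Cyld above 0. The panel with time as covariate uses the libraries of both other genotype panels.

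Whether the genotype difference changed between the times was tested as an interaction. None of the 9 members passed or had an unadjusted p under 0.05, where limma called 0.0703% of the genes tested and 9.98% at the unadjusted level. The interaction values ranged from -0.25 for Tnfaip3 to 0.46 for Tnip3, with standard errors of 0.81 and 0.75. This test rests on the single GdX-deficient library at 6 h, so values of this size do not show that the genotypes followed the same course.

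Ratios of 2 members within a library do not depend on how the library was scaled. Birc3 was 2.63 and 3.99 times as abundant as Birc2 in wild type at 90 min, 1.20 and 2.70 times at 6 h, 4.57 and 2.54 times in GdX-deficient spleen at 90 min and 1.65 times at 6 h. Both ligases are close relatives, and Birc3 exceeded Birc2 in all 7 libraries. Tnip3 was 0.651 and 0.410 times as abundant as Tnip1 in wild type at 90 min and 0.145 and 0.122 times at 6 h. In GdX-deficient spleen that ratio was 0.465 and 0.185 at 90 min and 0.0810 at 6 h, the lowest of the 7. Tnfaip3 was 15.2 and 22.0 times as abundant as Cyld in wild type at 90 min, and 6.05 and 10.1 times at 6 h. In GdX-deficient spleen the ratio of these deubiquitinase genes was 21.04 and 4.75 at 90 min and 2.64 at 6 h, so replicate 2 and the 6 h library lay below every wild-type library. Traf1 was 5.52 and 6.15 times as abundant as Traf2 in wild type at 90 min, 4.06 and 5.58 times at 6 h, 6.23 and 3.12 times in GdX-deficient spleen at 90 min and 3.36 times at 6 h, again with the same 2 GdX-deficient libraries lowest. These are the 2 libraries with neutrophil marker sums of 4699 and 2594 FPKM, against 684 to 1068 FPKM in the other 5, and the part of this in the ratios was not tested.

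**Figure D5:**
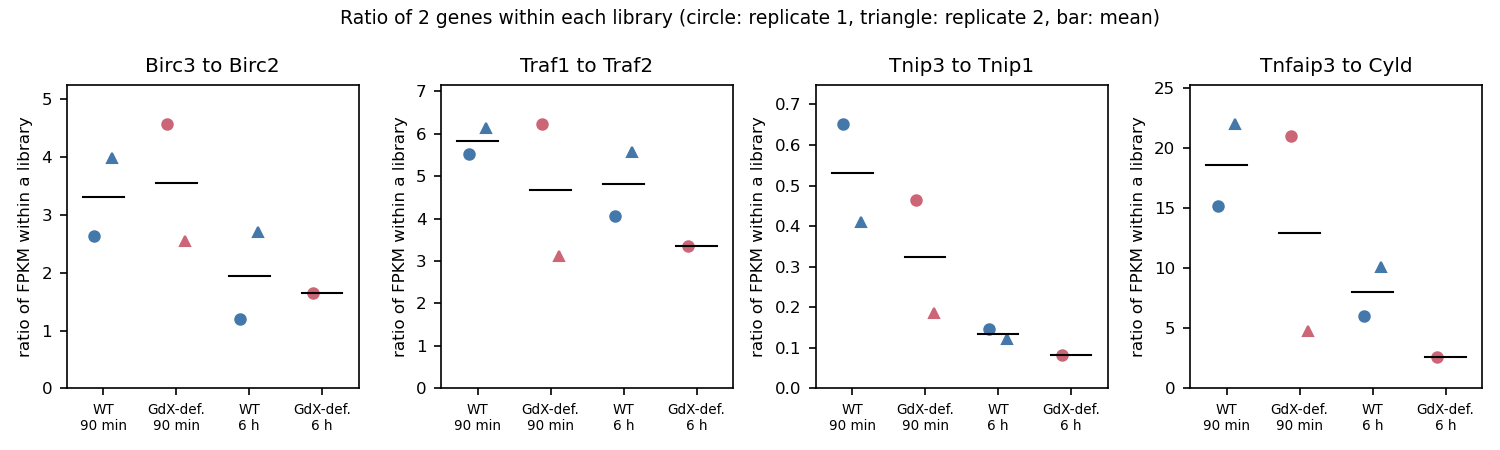
Ratio of the FPKM of 2 genes within each library (circles replicate 1, triangles replicate 2, bars group means). The ratio of Tnfaip3 to Cyld was 4.75 in replicate 2 of the GdX-deficient group at 90 min and 2.64 in the GdX-deficient library at 6 h, below the lowest wild-type ratio of 6.05. These 2 libraries also had the highest neutrophil marker sums (4699 and 2594 FPKM).

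The members' log2 levels were also compared with each other over the 7 libraries, which share the time points and the differences between replicates, so the values are a description. Tnfaip2 with Birc3 (Pearson's r = 0.954), Tnfaip3 with Birc3 (0.951) and Tnfaip3 with Tnip3 (0.934) were the most alike pairs, and Tnfaip2 with Traf2 (-0.799) the least. Among all other tested genes, the profile of Tnfaip3 was most like those of Cd86 (0.995), Insig1 (0.995), Mapk6 (0.994), Grhl1 (0.988) and Pim1 (0.985). Birc3 was most like Skil (0.999), Nipa2 (0.992), Dennd4a (0.989), Tmem243 (0.989) and Prdm1 (0.988). Traf1 was most like Inhbb (0.980), Pim3 (0.972), Nup62 (0.968), Cxcl3 (0.961) and Dll4 (0.955).

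The other genes of the pathway were read from a list of 42, all of which were tested: linear ubiquitin chain enzymes, partners of A20 and further deubiquitinases, other TRAF and IAP genes, adaptors and kinases, and conjugating enzymes with IAP antagonists. None of the 42 passed the threshold in either direction in any of the 5 comparisons by limma, where 0.0176% of all genes passed at 90 min between genotypes, 3.96% at 6 h, 0.0439% with time as covariate, 10.7% between the times in wild type and 0.0703% in the interaction. At an unadjusted p under 0.05 there was 1 of 42 at 90 min between genotypes (7.58% of all genes), 2 at 6 h (28.4%), 9 with time as covariate (27.0%), 5 between the times in wild type (28.7%) and 0 in the interaction (9.98%). With time as covariate, 31 of 42 had values above 0, with a median log2 fold change of 0.33 beside 0.16 for all genes, of which 62.2% had values above 0. Of the 9 members 8 lay below 0, but 5 without replicate 2 of the GdX-deficient group at 90 min and 3 after rescaling without globin genes. Birc6, a very large IAP-family ubiquitin-conjugating protein, had the smallest p in all 3 genotype comparisons. Its 90 min levels were 7.96 and 12.8 FPKM without GdX against 3.75 and 5.93 FPKM with it, and at 14.8 against 2.82 and 7.32 FPKM at 6 h, with no overlap at either time (log2 fold change with time as covariate 1.17, SE 0.32, limma adjusted p = 0.104). The deubiquitinase gene Otud5 (0.67, SE 0.23, limma adjusted p = 0.119) and Nod2, a bacterial sensor (0.65, limma adjusted p = 0.158), had values above 0. Otulin, whose product cuts linear chains, had a value below 0 (-0.59, SE 0.22, limma adjusted p = 0.135).

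At 90 min between genotypes the 4 smallest p-values of the list belonged to Birc6 (0.96), Otud5 (0.59), Otulin (-0.52) and Diablo (-0.47), the gene of an IAP antagonist, each with a limma adjusted p of 0.621. Otud5 was at 0.37 without replicate 1 of wild type. At 6 h they belonged to Birc6 (1.49, limma adjusted p = 0.109), the ligase gene Itch (1.07, 0.153), Otud5 (0.78, 0.187) and the caspase inhibitor gene Xiap (0.95, 0.193). Without replicate 2 of wild type at 6 h, 1 library stood against 1, and both were assumed to vary like the 90 min groups, which alone supplied the spread. Such p-values compare those 2 libraries, not the genotypes. All 4 passed there, with log2 fold changes of 2.05, 1.39, 1.08 and 1.45 and limma adjusted p of 0.00328, 0.0279, 0.0404 and 0.0155. That fit called 3035 genes, or 26.7% of all tested, against 3.96% with all libraries. Without replicate 1 the values were 0.93, 0.75, 0.49 and 0.44, and none of the 4 passed. Birc6 with time as covariate passed without replicate 1 of the GdX-deficient group at 90 min (1.38, limma adjusted p = 0.0363), in the fit that called 14.7% of all genes. Between the times in wild type the 4 were Tank, an adaptor of TRAF signalling (-1.14, limma adjusted p = 0.0880), Birc5, the mitotic gene survivin (-1.0, 0.0943), Rbck1 of the linear chain assembly complex (0.62, 0.115) and the ubiquitin receptor gene Optn (-0.83, 0.130). Tank passed without replicate 2 of wild type at 6 h (-1.73, limma adjusted p = 0.000856) and Birc5 without replicate 1 (-1.41, limma adjusted p = 0.00804), in fits that called 15.6% and 13.3% of all genes. With the other replicate left out, Tank was at -0.55 and Birc5 at -0.60, and neither passed. In the interaction they were Tnip2, a relative of Tnip1 (-0.68, limma adjusted p = 0.705), Rbck1 (-0.50, 0.749), Birc5 (0.68, 0.780) and Itch (0.66, 0.812). With 1 library left out Birc5 ranged from 0.28 without replicate 2 of wild type at 6 h to 1.09 without replicate 1. The Itch value was 0.25 when the first GdX-deficient library at 90 min was left out and 1.07 when the second was.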

How the data were processed

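Spleen RNA of 7 mice was sequenced (BGISEQ-500), per the labels' protocols. The authors deposited 1 table of FPKM values, with a column for each library, per the file headers. The submitters' processing notes name HISAT, HISAT2 2.0.4, Bowtie2, RSEM and the build GRCm38.p5, with no role or order. Groups and replicate numbers came from the sample titles, and 0 value columns were left unmapped. FPKM values were converted to log2(FPKM + 1), which understates the change of low genes, and the 11378 genes with a mean of at least 1 FPKM were fitted with limma 3.58.1 in R 4.3.3 (empirical Bayes with a trend). P-values are two-sided and adjusted by the Benjamini-Hochberg method over all genes tested, with a threshold of 0.05. Standard errors are moderated. Genotype at each time, time in wild type and the interaction came from a fit of 4 groups, and genotype with time as covariate from an additive fit. The fits were tested on simulated data with independent noise for each gene and library. Such data hold no shifts shared by many genes of a library, so how the fits deal with those was not tested. Depth was estimated from the step between low FPKM values of genes with 1 listed transcript between 300 and 1500 bases long, with GENCODE M21 lengths. Fragment counts were not used here, so intervals for counting error are not given. Gene locations and upstream sequences came from RefSeq (GRCm38.p6), and all 9 members were matched by Entrez gene. The members, the list of 42 further genes and the marker lists were chosen with earlier results of these data known. All 9 members are named. Of the further genes, those with the 4 smallest p-values per comparison are named, since fewer than 4 passed, and the 5 genes most like Tnfaip3, Traf1 and Birc3 by Pearson's r. Other settings tried were a pseudocount of 0.1, no filter or a mean of at least 5 FPKM, quantile normalization, rescaling without globin genes, the replicate number as a block, fits of the compared libraries alone and leaving out each library. Protein sequences were not used here.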

Additional observations from a re-analysis of the deposited data

How the results depend on the processing

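The number of members past the threshold stayed at 0 in the genotype comparisons at 90 min and 6 h and in the interaction under every alternative run. With time as covariate it ranged from 0 to 1 when 1 library was left out. Between the times in wild type it was 1, 0 without a filter on low values (Tnip3, adjusted p = 0.0883), 2 with the replicate block (Tnfaip2, adjusted p = 0.0365) and from 1 to 4 when 1 library was left out. Counts over all genes moved more (rescaling means without globin genes). At 90 min 2 genes were called, 181 in the fit of the compared libraries alone and from 2 to 183 with 1 library left out. At 6 h 450 genes were called, 90 without a filter, 233 with a mean of at least 5 FPKM, 270 after quantile normalization, 253 after rescaling, 3383 with the replicate block, 885 in the fit of the 6 h libraries alone and from 627 to 3035 with 1 library left out. With time as covariate the count was 5, 12 with the replicate block and from 2 to 1674 with 1 library left out. In wild type over time it was 1218, 635 without a filter, 708 after rescaling, 2345 with the replicate block and from 450 to 1774 with 1 library left out. In the interaction it was 8, 0 with a pseudocount of 0.1, 3 without a filter, 0 with a mean of at least 5 FPKM, 4 after quantile normalization, 0 after rescaling, 80 with the replicate block and from 0 to 238 with 1 library left out. The causes were not tested. Higher calls at 6 h were 331 of 450, 166 of 270 after quantile normalization and 214 of 253 after rescaling, and over time 499 of 1218 and 191 of 708 after rescaling.

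Replicate numbers were not taken as pairs over the whole design: same-numbered deviations correlated at 0.77 between the wild-type times, and at 0.08 and -0.12 between the GdX-deficient group at 90 min and those at 6 h and 90 min. At 90 min the crossed replicate block, added after the data were seen, called 2 genes and 0 members.

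Of the log2 fold changes of named genes under the alternatives, 787 kept direction and side of the threshold, 17 passed it only there, 1 lost it and 52 had the opposite sign. Several alternatives cannot change a log2 fold change, such as other filters and, in the fit of 4 groups, leaving out a library outside the comparison. There only the side of the threshold could differ, so the 787 do not measure how stable the direction is. Opposite signs after quantile normalization were Tnfaip2 at 90 min (0.089), Birc2 at 6 h (0.0086), and Tnip1 (0.065) and Tnfaip2 (0.20) with time as covariate. After rescaling they were Tnip1 (0.026), Tnfaip2 (0.085) and Traf2 (0.16) at 90 min, Traf2 (0.18), Birc2 (0.22) and Birc3 (0.091) at 6 h, Tnip1 (0.18), Tnfaip2 (0.23), Traf2 (0.17), Birc2 (0.035) and Birc3 (0.028) with time as covariate, and Traf2 in the interaction (0.016). With the replicate block they were Tnip1 (0.010) and Tnfaip2 (0.036) with time as covariate. The block also brought Birc6, Itch, Otud5 and Xiap at 6 h (adjusted p from 0.00779 to 0.0355) and Birc5 over time (0.0396) past the threshold.

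With 1 library left out, values at 90 min ranged from -1.34 to 0.18 for Tnfaip3, -0.54 to 0.18 for Tnip1, -0.36 to 0.12 for Tnfaip2, -0.95 to 0.068 for Traf1, -0.10 to 0.022 for Traf2, -0.66 to 0.21 for Birc3 and -0.017 to 0.55 for Cyld. At 6 h they were -0.24 to 0.53 for Tnip1, -0.10 to 0.46 for Tnfaip2 and -0.70 to 0.34 for Birc3. With time as covariate they were -0.20 to 0.16 for Tnip1, -0.12 to 0.15 for Tnfaip2 and -0.42 to 0.015 for Birc3. Over time in wild type they were -0.23 to 0.14 for Traf1 and -0.25 to 0.10 for Cyld. In the interaction they were -1.01 to 0.51 for Tnfaip3, -0.058 to 0.71 for Tnip1, -0.36 to 1.29 for Tnip3, -0.66 to 0.36 for Traf1, -0.11 to 0.011 for Traf2 and -0.48 to 0.56 for Birc3. The groups hold 2 libraries or 1, and the interaction and the 6 h comparison have no replicate in the GdX-deficient group at 6 h.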
